A study of Mus musculus with 2 samples.

Results

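Oligodendrocytes that carry *Opalin*, *Grb14* or *Tmod1* beside *Mog* and *Mag* were followed in the ventral parafacial region, a part of the mouse brainstem, in 2 libraries of single cells. The cells were chosen by their own counts of unique molecular identifiers (UMIs, 1 for each RNA molecule captured). A cell needed at least 5 UMIs of *Mog* and *Mag* together and at least 2 UMIs of *Opalin*, *Grb14* and *Tmod1* together, more than it held of *Klk6* and *Hapln2*. It could hold at most 2 UMIs of *C1qa*, *C1qb*, *Cldn5* and *Flt1*, which mark microglia and vessels, and none of the neuronal transporter genes *Slc32a1* and *Slc17a6*. Applied to barcodes with at least 800 genes, at most 50 haemoglobin UMIs and at most 20% mitochondrial UMIs, the rule took 1203 of 12395 cells. They are called Opalin oligodendrocytes below.

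Each library came from 8 pooled wild-type C57BL6/J mice aged 10 days, 4 male and 4 female. The mice of 1 library (batch 1) were untreated. The mice of the other library (batch 2) had received 4OH-tamoxifen, a ligand of oestrogen receptors, at 0.2 mg per day for 3 days. As there was a single library of each kind, no test was made between them, and treatment, batch, mice and depth cannot be told apart. Values are given with 95% intervals of counting error only.

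Oligodendrocytes wrap the axons of the central nervous system in myelin, a stack of membrane rich in lipid and held together by few abundant proteins. They descend from dividing precursors through committed and newly formed stages, and mature cells differ in the genes they add late. *Mag* encodes a glycoprotein of the membrane that faces the axon, *Mog* a glycoprotein of the outermost myelin layer and *Opalin* a sialylated membrane protein of oligodendrocytes.

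Opalin oligodendrocytes made up a somewhat larger share of the 4OH-tamoxifen library. They were 286 of 3345 cells in the untreated library (8.55%, 7.62 to 9.55) and 917 of 9050 in the 4OH-tamoxifen library (10.1%, 9.52 to 10.8). The gap depended on the filter, with 9.78% and 16.9% when 1200 genes were required per cell. Members were among the deeper cells, with a median of 11912 and 7395 UMIs, against 3632 and 2466 over all cells kept. Shares of members that carry *Mgp*, *Smco3* or *Cd9* are therefore also given after each cell was thinned to 2000 UMIs. This left out 3 and 10 members, and most other shares are given without thinning. The 2 libraries shared 33 of their filtered barcodes, and 1 barcode was a member in both.

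The marker genes used to choose the cells were well above the edges of the rule in most members. A member held a median of 92.5 (untreated) and 49 (4OH-tamoxifen) UMIs of *Mog* and *Mag*, and 20 and 12 UMIs of *Opalin*, *Grb14* and *Tmod1*. *Grb14* was present in 98.6% and 97.5% of members, *Opalin* in 86.0% and 73.2%, and *Tmod1* in 43.0% and 38.7%. *Grb14* was thus the gene of the 3 carried by most members, and cells admitted through it alone were not counted. At the edges, 20 and 56 members had exactly 2 UMIs of the 3 genes, and 44 and 129 cells failed the rule with 1. No *Klk6* or *Hapln2* UMI was seen in 142 and 489 members. Scaled to counts in 1000000 UMIs (CPM), *Opalin* stood at 889 and 512 in members, and at 18.5 and 36.3 in microglia, a level set beside the members as background. Microglia were cells with at least 10 UMIs of *C1qa* and *C1qb*, at most 2 of *Cldn5* and *Flt1*, and no *Slc32a1* or *Slc17a6*. No limit was set on myelin genes, so cells mixed with oligodendrocytes were not removed. *Opalin* was seen in 4.44% and 5.02% of microglia, with up to 12 and 10 UMIs in a cell. *Mog* stood at 3663 and 2607 CPM in members and 75.8 and 242 in microglia, whose median depth was 4111 and 2490 UMIs.

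The marker genes differ in the sequence around their starts. RefSeq promoter windows of 300 bases (build GRCm38.p6) were searched on both strands for a SOX core (ACAAAG or AACAAT) and for the motif of the oligodendrocyte factor MYRF (CTGGNAC). Of 32851 windows in the genome, 18.7%, 10.7% and 19.3% held ACAAAG, the other SOX core and the MYRF motif. The 12 of 13 rule genes with a window (all but *C1qa*) have 16 windows, of which 6, 2 and 7 held them. Windows 1 and 2 of *Mag* overlap and share their matches, and its window 3 held none. Counted by gene, 5, 2 and 6 of the 12 held them. CTGGNAC occurred in the windows of *Opalin* at chr19:41077064-41077363 (minus strand), *Grb14* at chr2:65022717-65023016 (minus strand), *Mog* at chr17:37023349-37023648 (minus strand) and *Mag* at chr7:30914814-30915113 (minus strand), and not in that of *Tmod1* at chr4:46038972-46039271 (plus strand). *Opalin*, *Tmod1* and *Mag* held ACAAAG. *Klk6* and *Hapln2*, which count against membership, also held CTGGNAC in a window, and both held AACAAT. *Klk6* and *Slc17a6* held ACAAAG. Capitals mark the matches in the windows below, credited to RefSeq. A match is a description of the sequence, and no binding was measured.
Opalin: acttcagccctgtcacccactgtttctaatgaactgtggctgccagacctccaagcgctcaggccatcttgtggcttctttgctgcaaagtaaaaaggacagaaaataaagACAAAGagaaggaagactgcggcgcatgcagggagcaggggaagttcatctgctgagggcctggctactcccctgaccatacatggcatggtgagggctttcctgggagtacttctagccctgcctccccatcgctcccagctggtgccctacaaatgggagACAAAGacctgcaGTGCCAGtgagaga
Grb14: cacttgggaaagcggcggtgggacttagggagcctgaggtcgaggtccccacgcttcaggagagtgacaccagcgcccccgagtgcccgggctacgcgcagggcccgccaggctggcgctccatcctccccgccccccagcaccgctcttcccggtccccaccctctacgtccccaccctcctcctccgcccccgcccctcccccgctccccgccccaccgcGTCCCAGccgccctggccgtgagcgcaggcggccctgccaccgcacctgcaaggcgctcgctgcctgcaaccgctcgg
Tmod1: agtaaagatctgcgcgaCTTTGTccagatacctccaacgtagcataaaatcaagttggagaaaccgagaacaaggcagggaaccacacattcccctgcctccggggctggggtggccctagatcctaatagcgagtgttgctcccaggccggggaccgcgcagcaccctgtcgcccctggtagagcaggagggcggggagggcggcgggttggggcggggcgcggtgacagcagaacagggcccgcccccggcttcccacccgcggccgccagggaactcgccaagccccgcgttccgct
Mog: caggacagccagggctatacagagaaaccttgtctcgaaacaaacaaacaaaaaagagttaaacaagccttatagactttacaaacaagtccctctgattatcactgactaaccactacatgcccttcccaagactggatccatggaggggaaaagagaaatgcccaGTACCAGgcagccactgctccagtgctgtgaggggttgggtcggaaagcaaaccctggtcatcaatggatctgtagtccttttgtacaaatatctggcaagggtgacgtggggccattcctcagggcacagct
Mag: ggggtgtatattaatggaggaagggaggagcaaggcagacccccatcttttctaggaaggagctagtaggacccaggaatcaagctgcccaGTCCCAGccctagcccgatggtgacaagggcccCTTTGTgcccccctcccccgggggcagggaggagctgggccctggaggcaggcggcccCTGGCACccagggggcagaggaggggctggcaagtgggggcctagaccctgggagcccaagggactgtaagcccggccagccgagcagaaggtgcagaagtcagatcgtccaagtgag

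Myelin transcripts filled a large part of the RNA of Opalin oligodendrocytes. *Mbp*, for myelin basic protein, stood at 19677 and 19851 CPM (untreated and 4OH-tamoxifen). *Fth1*, for the heavy chain of ferritin, stood at 13998 and 13871, and *Mobp* at 11096 and 11433. *Fth1* thus ranked among the genes of the sheath by level. *Cldn11* (8408 and 5814 CPM), *Cnp* (7508 and 6638), *Mag* (4927 and 4541) and *Mog* (3663 and 2607) came next among oligodendrocyte genes, with *Aplp1* (2706 and 2390), the growth factor gene *Ptn* (3393 and 2769), the deacetylase gene *Sirt2* (2518 and 2499) and the desaturase gene *Scd2* (2603 and 2403). Genes of general use also ranked high: *Tmsb4x* (4574 and 4307), *Ftl1* (2464 and 3101) and *Actb* (2378 and 3136). *Mbp*, *Fth1* and *Mobp* came in the same order in both libraries.

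Abundant myelin transcripts were also found in the microglia group, from which cells mixed with oligodendrocytes were not removed. Microglia held 9320 and 12978 CPM of *Mbp* and 832 and 1755 of *Mobp* (untreated and 4OH-tamoxifen). Opalin oligodendrocytes exceeded this level many times over for *Mobp*, and far less for *Mbp*. *Tmsb4x*, at 17876 and 13933 CPM, was higher in microglia than in members, so its high rank in members is not specific to them. Microglia also held ferritin transcripts, with *Fth1* at 4431 and 5632 CPM. Their *Ftl1*, at 6071 and 6283, was above the level in members.

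Opalin oligodendrocytes fell mainly into 2 clusters when cells were grouped without the genes that define the groups. The 16 genes of the group rules were left out, and 16 clusters resulted over both libraries. The first held 629 members (52.3%), which made up 84.7% of its cells. The second held 499 members (41.5%), and a further cluster held 51 (4.24%). The second cluster was shared: 390 Klk6 oligodendrocytes lay there, 97.0% of that group, against 2 in the first cluster. Klk6 oligodendrocytes were chosen like the members, with at least 2 UMIs of *Klk6* and *Hapln2* together and more of these than of *Opalin*, *Grb14* and *Tmod1*. The rule thus draws its line inside the second cluster, among cells that the other genes placed together.

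The split was similar in both libraries, but they were clustered together, with 8 neighbours of each cell taken from each library. Clusters were thus made to span both libraries, and the likeness is no separate support. The first and second clusters held 50.7% and 43.0% of untreated members, and 52.8% and 41.0% of 4OH-tamoxifen members. A UMI of *Klk6* or *Hapln2* was present in 28.3% (21.1 to 36.4) of untreated members in the first cluster and 82.9% (75.1 to 89.1) in the second. These genes had no part in the clustering but are part of the rule, so the shares describe the members and are no separate support for the split. The shares were 27.3% (23.4 to 31.5) and 76.6% (72.0 to 80.8) in the 4OH-tamoxifen library. Median UMIs were 12846 in the first and 10721 in the second cluster (untreated), and 7888 and 6822 (4OH-tamoxifen).

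**Figure D1:**
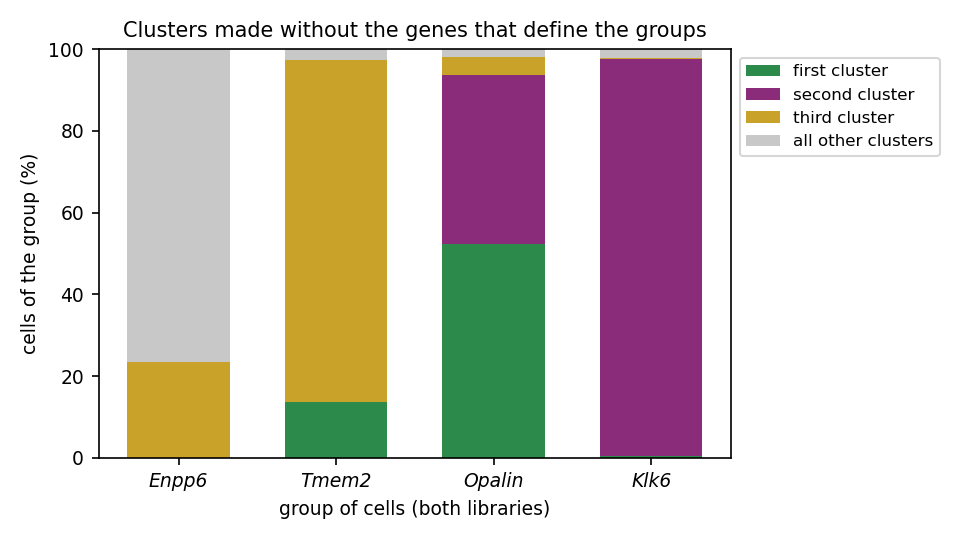
Share of each group in the clusters, in percent of the group's cells over both libraries. Opalin oligodendrocytes split 52.3% and 41.5% between the first and second clusters, and 97.0% of Klk6 oligodendrocytes lie in the second.

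The genes left out of the clustering also differed between members of the 2 clusters, given as a description where the rule used them. *Tmem2*, for a hyaluronidase of the cell surface, stood at 180.5 against 7.06 CPM in the first against the second cluster (untreated) and at 208 against 6.67 (4OH-tamoxifen). *Rras2*, for a Ras-related GTPase, stood at 326 against 18.04 and 285 against 19.2. Both were nearly absent from the members of the second cluster. *Hapln2* ran the other way, at 29.5 against 304 and 43.1 against 312, as did *Klk6* at 2.36 against 61.2 and 7.67 against 84.8. *Opalin* was higher in the first cluster, at 1213 against 572 and 688 against 309, and so was *Mag*, at 6306 against 3422 and 5821 against 2956. *Mog* differed little (3521 against 4291 and 2531 against 2992). *Enpp6*, a gene of early oligodendrocytes, was higher in the second cluster: 74.9 against 186 CPM (untreated) and 79.0 against 188 (4OH-tamoxifen).

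Opalin and Klk6 oligodendrocytes were alike in most genes. Of the genes, 2894 reached 50 CPM in whichever group was higher, in each library. Of these, 122 were higher in Opalin oligodendrocytes by 2-fold or more in both libraries (4.22%) and 75 were lower (2.59%). The fold was taken after 5 CPM were added to both sides. The median log2 ratio over these genes was −0.01 in both libraries. Most genes thus lay close to no difference, and 274 passed the fold in at least 1 library, none of them in opposite directions. Over the 2894 genes, the log2 ratios of the 2 libraries went together with a Pearson's r of 0.914. The groups held 286 and 88 cells (untreated) and 917 and 314 (4OH-tamoxifen), and Klk6 oligodendrocytes had a median of 9926 and 5858 UMIs. Signs of quality and of other cells differed beside the genes. The median mitochondrial share was 6.58% in Opalin and 10.04% in Klk6 oligodendrocytes (untreated), and 5.35% and 7.38% (4OH-tamoxifen). Neuron markers summed to 539 and 1670 CPM, and to 1164 and 1582, and 1 of 7 tested was lower in Opalin oligodendrocytes (*Uchl1*). Their part in the comparison was not tested.

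*Tmem141*, for a small membrane protein, showed the largest rise over Klk6 oligodendrocytes when 5 CPM were added to both sides. It stood at 914 against 74.6 CPM in the untreated library, a ratio of 12.2 (9.60 to 15.9), and at 1139 against 78.0 in the 4OH-tamoxifen library, a ratio of 14.6 (12.5 to 17.2). *Onecut2*, for a homeodomain transcription factor, stood at 202 against 23.7 and 237 against 20.4. The scaffold gene *Slc9a3r2* reached 123 against 10.2 and 113 against 7.45, and *Tmem178* 66.1 against 2.26 and 60.3 against 3.48. Microglia held 97.9 and 174 CPM of *Tmem141*, so its level in Klk6 oligodendrocytes was no higher than in cells of another type. Within the members it was uneven, at 1574 against 126 CPM in the first against the second cluster (untreated) and 1900 against 118 (4OH-tamoxifen), so most of the rise lay in the first cluster.

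The other genes with the largest rises over Klk6 oligodendrocytes have varied functions. In CPM in Opalin against Klk6 oligodendrocytes (untreated, then 4OH-tamoxifen), the protocadherin gene *Pcdh17* stood at 341 against 56.5 and 494 against 75.5. The potassium channel gene *Kcna1* stood at 183 against 26.0 and 177 against 27.3, the adhesion gene *Mcam* at 169 against 20.3 and 150.1 against 15.9, and *Ninj1* at 301 against 39.5 and 315 against 33.8. The troponin gene *Tnni1* (184 against 28.2 and 264 against 21.9) and the integrin gene *Itgad* (67.7 against 5.65 and 55.4 against 6.95) were also higher. The same direction was seen for the sialyltransferase gene *St8sia3*, the phosphoinositide-binding gene *Plekha1* and the less known *1810041L15Rik* and *Gm13889*. *St8sia3* stood at 86.1 against 10.2 and 76.8 against 9.44, *Plekha1* at 512 against 92.7 and 522 against 95.4, *1810041L15Rik* at 105 against 5.65 and 137 against 18.9, and *Gm13889* at 334 against 61.0 and 258 against 37.2. Some of these rises lay mostly in the first cluster. In its members against those of the second, *Pcdh17* stood at 514.4 against 54.12 and 743.5 against 71.05. *Ninj1* stood at 486.7 against 42.36 and 507.5 against 39.65. In the second cluster *Plekha1* (243.9 and 251.6) and *Mcam* (65.89 and 59.27) were still above Klk6 oligodendrocytes.

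The genes lowest in Opalin against Klk6 oligodendrocytes were also of varied function. The basement membrane gene *Nid1* stood at 6.04 against 137 CPM (untreated) and 11.8 against 107 (4OH-tamoxifen) in Opalin against Klk6 oligodendrocytes, and the glutathione transferase gene *Mgst3* at 99.8 against 833 and 76.1 against 495. *Apod*, for a lipid carrier, was abundant in both groups, at 1554 against 5877 and 854 against 3351, with ratios of 0.265 (0.254 to 0.275) and 0.255 (0.246 to 0.264). *S100b* stood at 880.5 against 3123 and 1026 against 3635. The abundant genes were thus lowered several-fold in Opalin oligodendrocytes and not lost.

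Further genes lower in Opalin than in Klk6 oligodendrocytes had moderate levels. In CPM (untreated, then 4OH-tamoxifen), *Anxa5* stood at 73.1 against 429 and 71.0 against 382, *Sec11c* at 171 against 684 and 170.4 against 725, and *Pmp22*, for a protein of peripheral myelin, at 11.8 against 132 and 18.9 against 102. The lipid droplet gene *Plin3* (23.5 against 130.0 and 12.98 against 78.0), the ganglioside synthase gene *St3gal5* (8.26 against 52.0 and 9.55 against 55.6) and the acyltransferase gene *Lpcat2* (10.2 against 88.1 and 8.95 against 80.0) followed. *Lpcat2* was also high in microglia, at 411 and 274. *Rab37* (6.99 against 104 and 8.06 against 74.0), *Tln2* (12.4 against 65.5 and 15.97 against 70.0) and *Dpysl5* (15.3 against 76.8 and 23.4 against 94.9) complete the named genes, beside *1810043G02Rik* and *Gm2694* (10.2 against 56.5 and 16.3 against 80.5).

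**Figure D2:**
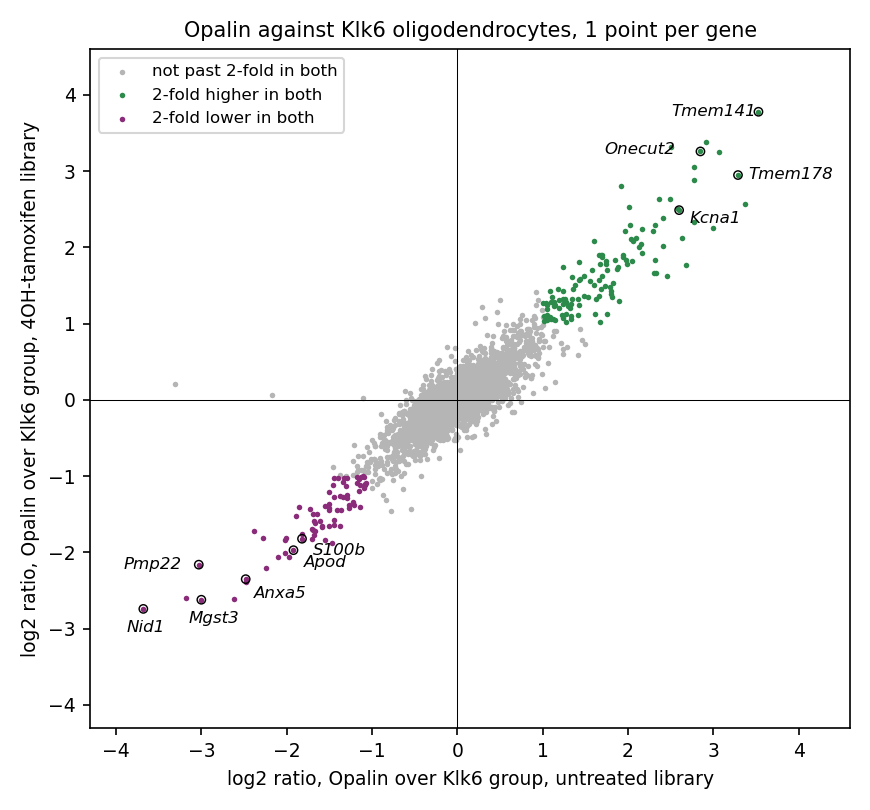
Log2 ratio of Opalin over Klk6 oligodendrocytes, 5 CPM added, in the untreated library (horizontal) and the 4OH-tamoxifen library (vertical). Each point is 1 of 2894 genes, and the genes past 2-fold in both libraries are coloured, 122 higher and 75 lower in Opalin oligodendrocytes.

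Lists of genes drawn up by function set Opalin apart from Klk6 oligodendrocytes by stage. Of 13 tested genes listed for newly formed oligodendrocytes, 9 were higher in Opalin oligodendrocytes and 0 were lower, against 4.22% of all tested genes. Their median log2 ratio was 1.74 and 1.35 (untreated and 4OH-tamoxifen), against −0.01 over all genes. *Enpp6* is on this list but, as a gene of the group rules, was not called, and it ran the other way, at 160.2 against 285 and 147 against 268 CPM. Of 21 genes of mature cells that are not in the rule, 9 were lower and 1 (*Car2*) was higher, with a median of −0.77 and −0.97. The direction of both medians held under the other scalings.

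The genes behind these counts differed in level and in their spread over the members. Among the newly formed genes, *Nfasc* stood at 1387 against 280.3 and 1578 against 336 CPM in Opalin against Klk6 oligodendrocytes (untreated, then 4OH-tamoxifen), and the transcription factor gene *Tcf7l2* at 103 against 27.1 and 123 against 31.3. *Itpr2* stood at 76.3 against 14.7 and 98.9 against 24.3. *Sema4d*, *Ctps*, *Tmem163*, *Man1a*, *Cnksr3* and *Tmem141* made up the rest of the 9. Members of the second cluster held *Nfasc* at 284 and 335 CPM and *Tcf7l2* at 7.06 and 19.6, close to or below the level of Klk6 oligodendrocytes. Of 323 untreated *Tcf7l2* UMIs in members, 135 lay in the first and 9 in the second cluster, so the 18 members outside both held most of them. Among mature genes, the transferrin gene *Trf* stood at 2327 against 5979 and 1554 against 4233, and *Anln* at 108 against 268 and 91.3 against 252. *Car2*, for carbonic anhydrase, ran against its list, at 582 against 274 and 455 against 215.

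Lists of the myelin machinery had no common direction between Opalin and Klk6 oligodendrocytes. Of 16 compact myelin genes, 2 were higher in Opalin oligodendrocytes (*Cd9* and *Tspan2*) and 3 were lower (*Pmp22*, *Gjb1* and *Cd82*; 1 under the mean of cell CPM), against 4.22% and 2.59% of all tested genes, with a median log2 ratio of 0.26 and 0.22 (untreated and 4OH-tamoxifen). None of 22 genes of cholesterol synthesis passed 2-fold, and 1 of 16 glycolipid and fatty acid genes was lower (*Elovl5*). The median of the cholesterol genes, −0.28 and −0.04, changed sign to 0.01 in the 4OH-tamoxifen library under median-of-ratios scaling, so it carries no direction. Of 4 iron genes 1 was lower (*Trf*), and of 9 glycolysis genes 1 (*Ldhb*). *Pmp22*, *Gjb1* and *Trf* were also counted among the mature genes.

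Lists of regulators and contact genes held more genes higher than lower in Opalin oligodendrocytes, where 4.22% of all tested genes were higher and 2.59% lower. These lists share called genes with those above, so their counts are not separate results. *Tcf7l2*, *Nfasc* and *Sema4d* were also counted among the newly formed genes, and *Anln*, *Car2* and *Gjb1* among the mature genes. Of 16 transcription factor genes of the lineage, 3 were higher (*Olig1*, *Olig2* and *Tcf7l2*) and 0 were lower, with a median log2 ratio of 0.49 and 0.41 (untreated and 4OH-tamoxifen). *Olig1* stood at 1262 against 567 and 1213 against 509 CPM in Opalin against Klk6 oligodendrocytes. Of 32 genes of the paranode, axon contact and cytoskeleton, 7 were higher (*Nfasc*, *Cntn1*, *Tppp*, *Pak1*, *Arpc1b*, *Ank3* and *Bin1*) and 2 lower (*Sept8* and *Anln*). *Cntn1* stood at 356 against 112 and 359.7 against 140.1. Of 17 receptor and adaptor genes 4 were higher (*Gpr17*, *Erbb3*, *Sema6a* and *Sema4d*) and 0 lower. The channel list had no such lean. Of 17 channel, transporter and connexin genes 2 were higher (*Kcna1* and *Car2*) and 2 lower (*Gjb1* and *Hcn2*). Under the mean of cell CPM 1 was higher and 0 lower. The median of the channel list, −0.05 and −0.02, flipped to 0.02 and 0.03 under median-of-ratios scaling.

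Against Enpp6 oligodendrocytes, an earlier group, Opalin oligodendrocytes differed in far more genes. These cells were chosen by at least 2 UMIs of *Enpp6*, fewer than 5 of *Mog* and *Mag*, fewer than 2 of *Opalin*, *Grb14* and *Tmod1* and fewer than 3 of *Tmem2* and *Rras2*. Their precursor genes summed to 9895 and 8319 CPM and their newly formed genes outside the rules to 6743 and 7866, so the group held both. They numbered 171 and 441, with a median of 5473 and 3324 UMIs. Of 3491 tested genes, 409 were higher in Opalin oligodendrocytes in both libraries (11.7%) and 563 were lower (16.1%). The balance of higher and lower genes depended on the scaling. The median log2 ratio over all tested genes was −0.40 and −0.36 in CPM (untreated and 4OH-tamoxifen), and 0.22 and 0.21 under median of ratios, where 586 genes were higher and 238 lower. A statement that more genes fell than rose is therefore not made.

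Ribosomal genes and *Malat1* differed between the 2 groups beside this. The median share of UMIs from *Rps* and *Rpl* genes was 5.27% and 7.50% in Opalin and 13.9% and 13.8% in Enpp6 oligodendrocytes. The nuclear RNA *Malat1* stood at 108670 against 24811 and 123666 against 36106 CPM in Opalin against Enpp6 oligodendrocytes (untreated, then 4OH-tamoxifen). CPM are shares of a total, so both enter the value of every other gene. With the scaling that leaves out mitochondrial and ribosomal genes the medians were −0.53 and −0.48, and the part of *Malat1* was not tested.

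Genes of myelin membranes and junctions were among those that rose most over Enpp6 oligodendrocytes. *Mal*, for a proteolipid of myelin, stood at 2982 against 34.4 and 2094 against 34.8 CPM (untreated, then 4OH-tamoxifen) in Opalin against Enpp6 oligodendrocytes, with ratios of 86.7 (61.7 to 126) and 60.1 (45.9 to 80.3). The connexin gene *Gjb1* stood at 488 against 6.25 and 494 against 12.5. *Gsn*, which encodes the actin-severing protein gelsolin, stood at 2247 against 54.2 and 1619 against 61.8. Their levels in microglia were 83.5 and 213 CPM for *Mal* and 62.1 and 174 for *Gsn*, so Enpp6 oligodendrocytes held no more *Mal* or *Gsn* than microglia did. *Ppp1r14a* (983 against 12.5 and 811 against 25.6), *Sytl2* (228 against 0 and 236 against 3.94), *Tmem125* (420.5 against 2.08 and 436 against 13.1), *Plekhh1* (216 against 3.13 and 236 against 6.57), *Man1a* (244 against 4.17 and 210.2 against 3.94) and *Onecut2* (202 against 1.04 and 237 against 4.598) rose as well. *Onecut2* and *Man1a* were thus higher in Opalin than in both Enpp6 and Klk6 oligodendrocytes. The Tmem2 oligodendrocytes described below, placed between the Enpp6 and Opalin groups, were not part of this comparison.

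The genes that fell most from Enpp6 to Opalin oligodendrocytes were of varied function. *Bmp4*, for a secreted growth factor, stood at 17.8 against 1062 and 19.1 against 755 CPM in Opalin against Enpp6 oligodendrocytes (untreated, then 4OH-tamoxifen), the sialidase gene *Neu4* at 9.85 against 381 and 10.3 against 279.8 and the matrix gene *Tnr* at 72.8 against 1341 and 66.0 against 1334. *Opcml* (54.0 against 1142 and 54.6 against 1019), *Epcam* (5.09 against 214 and 3.28 against 137) and *Ptprj* (5.404 against 157 and 7.61 against 196) encode adhesion or receptor proteins and fell too. *Pak4* (12.7 against 381 and 13.6 against 329.8), *Pdcd4* (53.4 against 885 and 67.1 against 1401), *Mycl* (10.5 against 372 and 12.4 against 258) and *Gp1bb* (3.18 against 199 and 9.10 against 208) complete the 10 with the largest fall. *Tnr*, *Opcml* and *Pdcd4* kept the highest levels of these in Opalin oligodendrocytes.

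The lists showed where the change from Enpp6 to Opalin oligodendrocytes lay. Of 14 compact myelin genes 10 were higher in Opalin oligodendrocytes and 1 (*Cd9*) was lower, with a median log2 ratio of 3.38 and 2.82 (untreated and 4OH-tamoxifen), against −0.40 and −0.36 over all tested genes, of which 11.7% were higher and 16.1% lower. Of 19 mature genes outside the rule 16 were higher, with a median of 3.81 and 3.37. Glycolipid and fatty acid enzymes (12 of 17 higher, 1.39 and 1.22) and cholesterol synthesis (11 of 22 higher, 1.01 and 1.11) had no gene lower. Without mitochondrial and ribosomal genes in the scaling, 9 glycolipid genes were higher and 1 lower, and 8 cholesterol genes higher. The medians of these 4 lists were above 0 under each scaling. The lists of receptors (9 higher and 1 lower of 18, *Gpr17* being the lower), channels (9 and 3 of 19), paranode and cytoskeleton (12 and 6 of 32) and iron (3 and 0 of 4) also leaned higher. The receptor counts were 9 and 4 of 21 without mitochondrial and ribosomal genes, and 10 and 3 of 20 under the mean of cell CPM. These lists overlap too, so their counts are not separate results. *Gjb1* was counted in the compact myelin, mature and channel lists, and *Cyp51* in the glycolipid and cholesterol lists. *Trf* and *Fth1* were counted in the mature and iron lists.

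Precursor genes fell nearly throughout. Of 13 tested, 13 were lower in Opalin than in Enpp6 oligodendrocytes, with a median log2 ratio of −4.01 and −2.84 (untreated and 4OH-tamoxifen), and 12 of 13 under median of ratios. Transcription factor genes were divided, 3 higher (*Nkx6-2*, *Zfp536* and *Carhsp1*) and 8 lower of 19, and 3 and 5 under median of ratios. Newly formed genes were divided as well, 4 and 7 of 15, and their median in the untreated library flipped from −0.24 to 0.28 with the scaling. Of 11 glycolysis genes 2 were lower (*Pkm* and *Ldha*), near the 16.1% of all tested genes. Of neuron markers 3 of 8 and of astrocyte markers 2 of 12 were lower and none higher, and the counts followed the scaling: none was lower under median of ratios, and 4 of 10 and 7 of 15 without mitochondrial and ribosomal genes. Their part in the comparison was not tested.

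Summed in CPM over each list, the stages formed a series with different turning points. A further group was placed between Enpp6 and Opalin oligodendrocytes for this, 48 and 208 Tmem2 oligodendrocytes with at least 3 UMIs of *Tmem2* and *Rras2*, at least 1 of *Mog* or *Mag*, and fewer than 2 of the Opalin and of the Klk6 genes. The sums leave out the genes of the group rules. Compact myelin genes summed to 26236, 65855, 110842 and 101161 CPM in Enpp6, Tmem2, Opalin and Klk6 oligodendrocytes of the untreated library, and to 29965, 65112, 95725 and 87659 in the other. Opalin oligodendrocytes thus stood highest of the 4 groups. Microglia held 14030 and 22385 CPM of these genes.

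Other lists peaked before or after Opalin oligodendrocytes. Newly formed genes peaked in Tmem2 oligodendrocytes, at 6743, 11801, 3964 and 1209 CPM (untreated) and 7866, 11664, 4267 and 1238 (4OH-tamoxifen) in the same order of groups. Mature genes outside the rule stood at 4687, 3531, 27094 and 46871 and 5460, 4208, 23702 and 45496, and iron genes at 4346, 4936, 19692 and 28272 and 5066, 5711, 19226 and 32085, both highest in Klk6 oligodendrocytes. The 2 lists share *Trf* and *Fth1*, and *Fth1* alone made 13998 and 13871 CPM of each in Opalin oligodendrocytes. Transcription factor genes declined from the first group to the last, at 6257, 5779, 4179 and 2773 and 6398, 5716, 4184 and 2785. The order of the 4 groups was the same in both libraries for these lists. Cholesterol genes were level from Tmem2 to Opalin oligodendrocytes, at 2601, 6378, 6564 and 8234 and 2749, 6466, 6326 and 6520. Precursor genes stood at 622 and 773 CPM in Opalin oligodendrocytes and 517 and 861 in microglia, and cell cycle genes at 233 and 279 and, in microglia, 1582 and 1614.

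**Figure D3:**
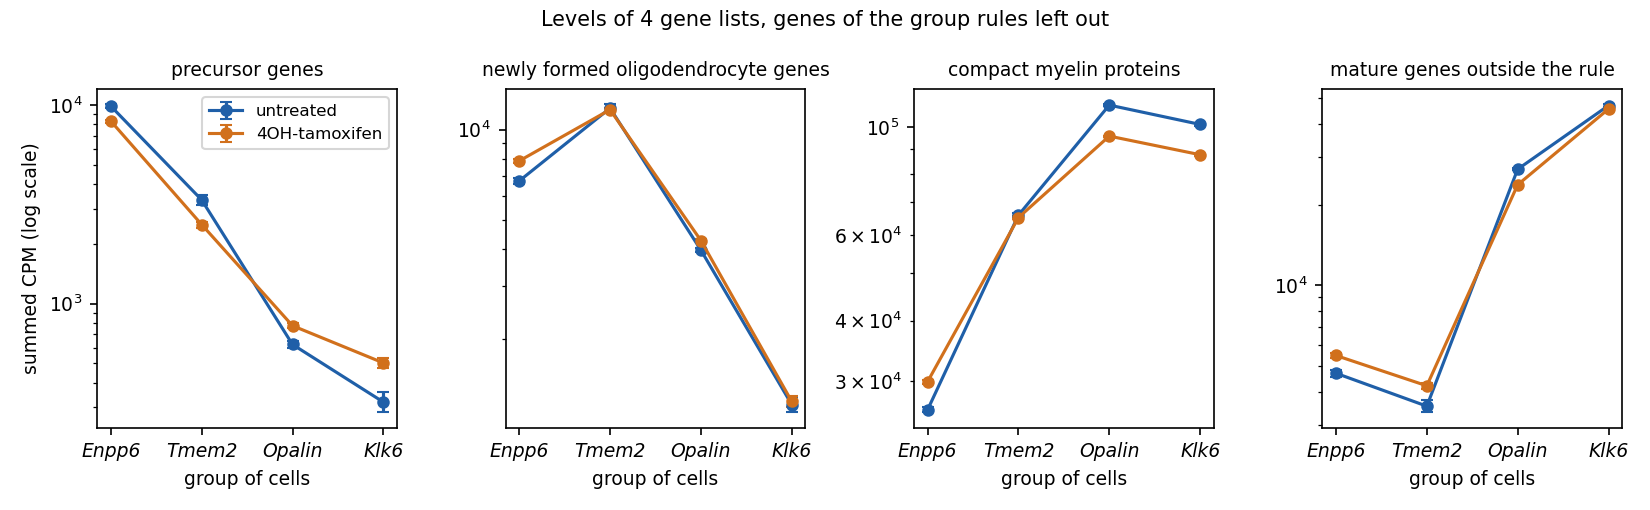
Summed CPM (log scale) of 4 gene lists, without the genes of the group rules, in Enpp6, Tmem2, Opalin and Klk6 oligodendrocytes of the untreated and 4OH-tamoxifen libraries, with Poisson intervals as bars. Compact myelin genes reach 110842 and 95725 CPM in Opalin oligodendrocytes, where newly formed genes have already fallen to 3964 and 4267.

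Members differed from each other strongly in *Malat1*, in ferritin and in myelin genes. After thinning to 2000 UMIs (283 untreated and 907 4OH-tamoxifen cells), the variance over the mean of *Malat1* was 64.9 and 59.5, and of *Fth1* 17.3 and 19.7. The median over 1303 genes was 1.08 in both libraries, about the level of counting noise. *Mbp* (6.10 and 5.59), *Mobp* (4.45 and 4.53), *Actb* (5.49 and 10.2), *Marcks* (5.56 and 6.15) and the mitochondrial *mt-Co3* (9.16 and 5.77), *mt-Atp6* (7.14 and 5.21) and *mt-Co1* (5.59 and 4.57) were also among the 10 most variable. *Marcks* was the least abundant of them, with a mean of 1.09 and 1.56 UMIs. Without thinning, *Fth1* stood at 8811 against 22551 CPM in members of the first against the second cluster (untreated). In the 4OH-tamoxifen library it stood at 7453 against 24816.

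Some of the variable genes moved with genes of the early and late stages across Opalin oligodendrocytes, while *Malat1* did so weakly. Over the same 283 and 907 thinned cells, Pearson's r of log2 UMIs was 0.72 and 0.64 for *Marcks* with *Rras2*, and 0.65 and 0.65 for *Marcks* with *Tmem2*. *Apod* went with *Trf* (0.74 and 0.61) and *Tmem141* with *Nfasc* (0.57 and 0.62). Between early and late genes r was negative, at −0.58 and −0.52 for *Tmem141* with *Apod* and −0.63 and −0.71 for *Fth1* with *Nfasc*. *Fth1* and *Marcks* ran in opposite directions (−0.58 and −0.62), and *Malat1* gave −0.01 and −0.04 with *Fth1*, −0.22 and −0.32 with *Marcks* and 0.21 and 0.27 with *Opalin*. *Fth1* thus ran against *Nfasc* and *Marcks* in both libraries. The early gene *Enpp6* was not among the genes correlated, and like *Fth1* it was higher in members of the second cluster.

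Between the libraries, Opalin oligodendrocytes were nearly the same. Of 2938 tested genes, 3 were higher by 2-fold or more in the untreated library (0.102%) and 10 in the 4OH-tamoxifen library (0.34%). The median log2 ratio was 0.01. Few genes were thus called, but the counts depended on the setting. With cells thinned before the rule, which also chose the members anew, 16 were higher in the untreated library. With 20 CPM added, 5 were higher in the other. The 3 genes were *Mgp*, *Smco3* and *Cd9*, and each passed the fold in every one of the 18 alternative settings. *Mgp* and *Smco3* were named from earlier results of these data.

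*Mgp*, for matrix Gla protein, showed by far the largest difference between the libraries. It stood at 557 CPM in untreated and 2.54 in 4OH-tamoxifen Opalin oligodendrocytes, a ratio of 219.5 (137 to 378). It was present in 106 of 286 members (37.1%, 31.4 to 43.0) against 15 of 917 (1.64%), and in 23.3% and 0.441% after thinning. The share in microglia was 3.39% and 0.608%. The transcript was uneven within the untreated members: the 10% of cells with most held 77.0% of its UMIs, and 44 cells held 10 or more, up to 137. It was carried by 43.2% of untreated Klk6, 12.5% of Tmem2 and 5.85% of Enpp6 oligodendrocytes. After thinning the shares were 22.7%, 4.35% and 3.03%, and without thinning the levels were 233, 28.4 and 23.97 CPM, so Opalin oligodendrocytes held the highest level of the 4 groups. Cells with no *Mog* or *Mag* UMI held 107 CPM (untreated) and 19.6 (4OH-tamoxifen), so *Mgp* differed in those cells too.

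Members with and without *Mgp* were alike in sex-linked transcripts, but *Mgp* was uneven between the clusters. Among untreated members with *Mgp*, *Xist* was detected in 44.3% (34.7 to 54.3) and a Y-linked gene in 54.7% (44.8 to 64.4). Among those without, the shares were 46.1% (38.7 to 53.7) and 48.3% (40.8 to 55.9). As a description, since *Mgp* was not left out of the clustering, untreated members held 854 against 233 CPM of *Mgp* in the first against the second cluster. The median depth was 12784 UMIs with and 10821 without *Mgp*.

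*Smco3*, for a single-pass membrane protein, lies near *Mgp* on chromosome 6 and differed in the same direction. It stood at 60.1 CPM in untreated and 11.04 in 4OH-tamoxifen members, a ratio of 5.44 (4.14 to 7.22), and was present in 42.3% and 7.63% (9.89% and 2.76% after thinning). Klk6 oligodendrocytes showed the same, with 61.0 and 9.44 CPM and a share of 42.0% and 5.73%, and microglia carried it in 0.261% and 0.456%. Among untreated members it was present in 72 of 180 without *Mgp* (32.8 to 47.6%), in 8 of 32 with 1 or 2 *Mgp* UMIs (11.5 to 43.4%) and in 41 of 74 with 3 or more (55.4%, 43.4 to 67.0). The next gene beyond *Mgp*, *Erp27*, stood at 20.02 and 8.06 CPM, a ratio of 2.48 (1.70 to 3.64) and a level below the 50 CPM needed for a call. *Hist4h4*, with 17 and 8 UMIs, had a ratio of 4.53 (1.85 to 12.1). The more abundant neighbours did not follow: the ratio was 0.635 (0.604 to 0.666) for *H2afj*, 0.894 (0.772 to 1.03) for *Wbp11* and 1.007 (0.827 to 1.22) for *Atf7ip*. *Mgp* lies at chr6:136872435-136875823 and *Smco3* at chr6:136829927-136835452, both on the minus strand, and *BC049715*, which overlaps *Smco3* on the plus strand, had 5 and 13 UMIs.

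*Cd9*, for a tetraspanin of the membrane, differed least of the 3 genes. It stood at 417 CPM in untreated and 182 in 4OH-tamoxifen members, a ratio of 2.29 (2.11 to 2.48), and was present in 84.3% and 56.9% (49.5% and 26.5% after thinning). Other cells showed the same direction: Enpp6 oligodendrocytes held 3601 and 1728 CPM, Tmem2 oligodendrocytes 508 and 251, Klk6 oligodendrocytes 79.1 and 54.1 and microglia 806 and 633. The difference in *Cd9* was thus not particular to members. Among genes just under the fold with 5 CPM added, *Apod* stood at 1554 and 854 CPM, a ratio of 1.82 (1.75 to 1.89), *Cd82* at 69.3 and 34.0, *Hdac11* at 54.0 and 25.7, *Grm4* at 74.1 and 38.2 and *Spock3* at 94.1 and 46.4. *Nmral1* (55.3 and 26.0), *Tulp3* (64.8 and 31.5) and *Cept1* (50.9 and 24.9) were close behind. None of these was called.

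**Figure D4:**
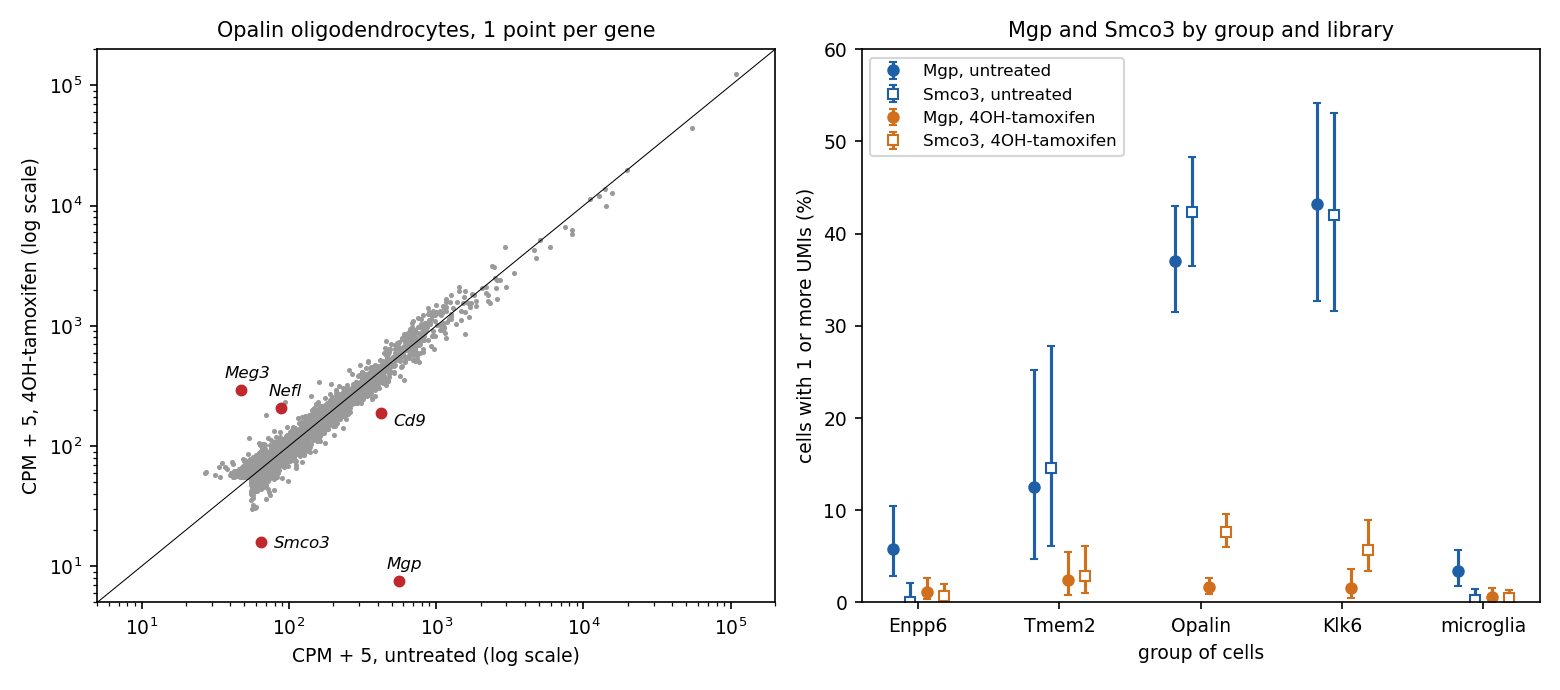
Left, CPM plus 5 of each tested gene in Opalin oligodendrocytes of the untreated library against the 4OH-tamoxifen library, with 5 of the genes past 2-fold marked. Right, percent of cells that carry *Mgp* or *Smco3* in each group and library with 95% binomial intervals as bars; *Mgp* reaches 37.1% of untreated and 1.64% of 4OH-tamoxifen Opalin oligodendrocytes.

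Several of the 10 genes higher in 4OH-tamoxifen members are neuronal, and the neurofilament genes were higher in 4OH-tamoxifen microglia too. *Meg3* stood at 42.6 CPM in untreated and 285 in 4OH-tamoxifen Opalin oligodendrocytes, log2 ratio −2.61, and the 10% of the latter cells with most held 87.0% of its UMIs. *Nefl* stood at 83.6 and 202 CPM in members and 183 and 432 in microglia, and *Nefm* at 48.3 and 112 in members and 84.1 and 228 in microglia. *Meg3* stood at 188 and 198 in microglia, where 1 untreated cell held 245 of its 315 UMIs. It was carried by 11.5% of untreated and 23.7% of 4OH-tamoxifen microglia. *Snhg11* stood at 30.2 and 67.0 in members. Few cells thus carried most of *Meg3*, and the neurofilament genes differed about as much in microglia as in members. With called doublets left out, the log2 ratio of *Meg3* was −1.06, of *Nefl* −1.01 and of *Snhg11* 0.06. Scrublet called 3 untreated and 55 4OH-tamoxifen members doublets, and *Atp1b1*, *Nefm* and *Snhg11* did not pass the fold without them. *Meg3* and *Nefl* did not pass with *Mog* and *Mag* at 3 or more. The call of *Meg3* was also lost with *Opalin*, *Grb14* and *Tmod1* at 1 or more. That of *Nefl* was lost with no UMI of *C1qa*, *C1qb*, *Cldn5* and *Flt1* and with the mean of cell CPM.

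Other genes higher in 4OH-tamoxifen members are of metabolism, chromatin and ion transport. In CPM (untreated and 4OH-tamoxifen), the malic enzyme gene *Me1* stood at 64.5 and 176, the histone gene *Hist1h1c* at 89.6 and 227, *Uap1* at 22.6 and 55.4 and *Usf1* at 28.6 and 62.4. *Me1* and *Hist1h1c* passed the fold in each of the 18 alternative settings. *Usf1* lay at the edge of the fold and did not pass in several of them. *Uap1* did not pass with cells thinned before the rule or with 20 CPM added. The sodium pump gene *Atp1b1* stood at 21.9 and 55.2. *Me1* stood at 22.7 and 57.4 in microglia, so its rise was shared with cells of another type.

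Neuron markers were present in members at a higher level in the 4OH-tamoxifen library. Of 20 listed neuron markers, 20 and 20 were detected, summing to 539 and 1164 CPM, with *Uchl1* and *Meg3* at the top. Microglia held 899.9 and 1731 CPM of them. Of 8 tested, 4 were lower in untreated members, against 0.34% of all tested genes, with a median log2 ratio of −0.95. Their part in the difference between libraries was not tested. *Slc32a1* and *Slc17a6* were 0 in members by the rule.

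Markers of other cell types were detected in Opalin oligodendrocytes at different levels. Microglia markers outside the rule summed to 99.2 and 109.7 CPM in members, against 28996 and 20917 in microglia. Endothelial markers outside the rule summed to 284 and 224 CPM, and astrocyte markers to 2030 and 2527, led by *Apoe*. Pericyte and fibroblast markers stood at 598 and 57.5, of which *Mgp* itself made up most in the untreated library. Of these markers 12 astrocyte, 1 endothelial, 1 pericyte and 0 microglia genes were abundant enough to be called between the libraries, and *Mgp* alone passed 2-fold. Their part in the comparisons was not tested. Choroid, ependymal and erythroid markers summed to 149 and 136 CPM, led by a haemoglobin gene.

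Lists of response genes were also summed in untreated and 4OH-tamoxifen Opalin oligodendrocytes. Immediate early and dissociation genes summed to 1734 and 1508 CPM, glucocorticoid responsive genes to 1793 and 2163, and genes of antigen presentation and interferon to 111 and 109.8. None of 4 and 6 tested genes of the first 2 lists passed 2-fold, where 0.102% and 0.34% of all tested genes did, and none of the interferon list was abundant enough. Of 13 genes listed around oestrogen receptors, 8 and 11 were detected, summing to 680.2 and 71.3 CPM. The 2 tested, *Mgp* and *Smco3*, were put on that list with their values known, and both were higher in untreated members. The receptor gene *Esr1* stood at 0.318 and 0.149 CPM in members.

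The myelin and stage lists held 1 call between the libraries. Of 15 compact myelin genes 1 was higher in untreated members (*Cd9*) and 0 lower. None of 19 mature, 13 newly formed, 22 cholesterol and 16 transcription factor genes passed 2-fold. With 0.102% and 0.34% of all tested genes called, lists of this size would hold few or no calls either way.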

How the data were processed

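Single-cell counts of 2 libraries (10x Genomics) were used as deposited: UMI counts per gene and barcode, which the authors made with bcl2fastq 2.18.0.12 and Cell Ranger 2.2.0 on mm10. The members and gene lists were chosen with earlier results of these data known. UMIs were summed per library and group and scaled to CPM. A gene was called at 2-fold or more, after 5 CPM were added, if it reached 50 CPM in whichever side was higher, and for groups in both libraries; 16 genes of the group rules were left out of the calls. Named genes are those of the rule, the largest log2 ratios in each direction, the most abundant and the most variable genes, the leading genes of 23 lists, and *Mgp* and *Smco3*. Intervals are exact (Poisson, binomial and conditional binomial). Clusters used Leiden on 2000 variable genes, 25 components and 8 neighbours per library at resolution 0.7. Scrublet doublets were marked and kept. Gene positions are from GENCODE M21. The libraries held 18496942 and 34704167 UMIs in 3767 and 10241 barcodes. Settings were varied 17 times as planned and 1 time by choice after seeing the data. Scripts (Python 3.11.15, numpy 2.4.6, scipy 1.17.1, pandas 2.3.3, scanpy 1.11.5, scikit-learn 1.9.0, leidenalg 0.10.2, igraph 0.11.9) were tested on simulated data.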

Additional observations from a re-analysis of the deposited data

How the results depend on the processing

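*Mgp*, *Smco3* and *Cd9* passed 2-fold between the libraries in each of 18 settings, 1 of them (members outside the first and second clusters left out) chosen after seeing the data. Of 3960 log2 ratios of named genes under these settings, 3513 stayed within their interval, 445 moved beyond it and 2 reversed: *Snhg11* between the libraries was 0.06 with called doublets left out and 0.15 with cells thinned before the rule. The share of Opalin oligodendrocytes (untreated and 4OH-tamoxifen) was 9.78% and 16.9% at 1200 or more genes, 10.1% and 13.4% at 10% or fewer mitochondrial UMIs, 9.87% and 11.6% with *Opalin*, *Grb14* and *Tmod1* at 1 or more, 7.62% and 8.94% at 4 or more, 7.50% and 8.86% with more than 2 times the *Klk6* and *Hapln2* sum, and 5.20% and 7.38% with no UMI of *C1qa*, *C1qb*, *Cldn5* and *Flt1*. The 4OH-tamoxifen share was 12.03% with cells thinned before the rule and 9.50% with the first and second clusters alone. The cause was not tested, apart from the change of the cells admitted. Genes higher in untreated members numbered 8 with no UMI of those 4 genes, 16 with cells thinned before the rule and 9 with 1 CPM added. They numbered 6 at 20 CPM or more and 5 with the mean of cell CPM. Genes higher in 4OH-tamoxifen members numbered 5 with *Mog* and *Mag* at 3 or more, 5 with 20 CPM added, 6 with the mean of cell CPM and 6 with the 2 clusters alone. At 20 CPM or more, 113 genes were lower than in Klk6 and 891 lower than in Enpp6 oligodendrocytes, and 238 were lower than in Enpp6 oligodendrocytes under median of ratios. The cause was not tested. No paired analysis was possible because there was 1 library per condition. Depth limits what can be said of genes under 50 CPM and of the 4OH-tamoxifen cells, which held fewer UMIs each.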
